A study of Homo sapiens with 12 samples.

Results

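U251TR is a temozolomide-resistant derivative of U251MG, an established human glioblastoma cell line, and its transcriptome was compared with that of the parental line. The comparison used 6 of the 12 RNA sequencing libraries in the series, 3 from U251TR and 3 from U251MG. Both lines were kept in DMEM with 10% fetal bovine serum, and resistance had been selected by repeated exposure of U251MG to temozolomide in rising amounts. No treatment is named for U251MG. The labels give neither the drug concentrations nor the length of the selection, and do not state whether drug was present when RNA was collected or whether U251TR is 1 clone. The comparison holds 1 resistant line, so resistance cannot be told apart from any other change that arose during the derivation. Whether replicate libraries come from separate cultures is not in the labels either, and p-values therefore measure only the spread between these libraries, which may be technical.

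Temozolomide methylates DNA bases. The lesion on the guanine oxygen is removed by the repair protein MGMT, and where it is not removed, mismatch repair acts on the mispaired base and turns it into a lethal break. Other methylated bases are handled by base excision repair. Glioblastoma cells are described as ranging from proneural states, with stem cell and oligodendrocyte precursor factors, to mesenchymal states rich in matrix and inflammatory genes. Interferons, which cells release on sensing viral or displaced nucleic acids, act through JAK kinases and STAT factors to switch on antiviral genes.

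Expression values were taken to be FPKM, fragments per kilobase of transcript scaled to the mapped fragments of the library. Of 31654 gene symbols, 14093 reached 1 FPKM in at least 3 of the 6 libraries and were tested with limma on log2(FPKM + 1), with Benjamini-Hochberg adjustment over all of them. Log2 fold changes below are U251TR minus U251MG on that scale, which understates the change of genes at low level. At an adjusted p under 0.05, 7282 genes differed (51.7%), of which 4609 (32.7% of those tested) were higher in U251TR and 2673 (19.0%) lower. A change of at least 2-fold was called for 2068 genes (14.7%), 1404 higher (9.96%) and 664 lower (4.71%). These shares are the background for every count of a gene group below that rests on all 6 libraries as deposited. The values of the lines did not overlap for 8639 genes (61.3%), 5304 of them higher in U251TR (37.6%) and 3335 lower (23.7%). That share is the background for each remark on overlap below, where most genes were named for a large change. At least 16-fold changes were called for 29 genes that rose and 14 that fell. The median log2 fold change of all tested genes was 0.11. It became 0.00 after median-of-ratios scaling, -0.02 after quantile normalization and 0.22 after rescaling to TPM, and of the genes that changed, 63.3% were higher in U251TR as deposited, 51.1% after median-of-ratios scaling and 49.7% after quantile normalization. Of the genes called at 2-fold, 2048 kept call and direction under all 3 scalings and 2004 kept them whichever library was left out.

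The libraries were alike in breadth. Between 13288 and 13639 genes reached 1 FPKM in U251MG and between 13853 and 14122 in U251TR. The read depth is unknown because no counts were used. Replicate 2 of U251MG stood apart from its group: its rank correlation with replicates 1 and 3 was 0.973 and 0.974, against 0.993 between those 2, and 478 genes lay at least 2-fold from the mean of replicates 1 and 3, against 91 that differed as much between replicates 1 and 3. Correlations within U251TR were 0.989 to 0.993, and between the lines 0.900 to 0.916. Leaving that library out raised the number of changed genes to 9200, so many genes given below as not passing were past the threshold without it. Of the 14093 genes, 5737 were then higher and 3463 lower, which is the background for counts given below without that replicate.

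**Figure D1:**
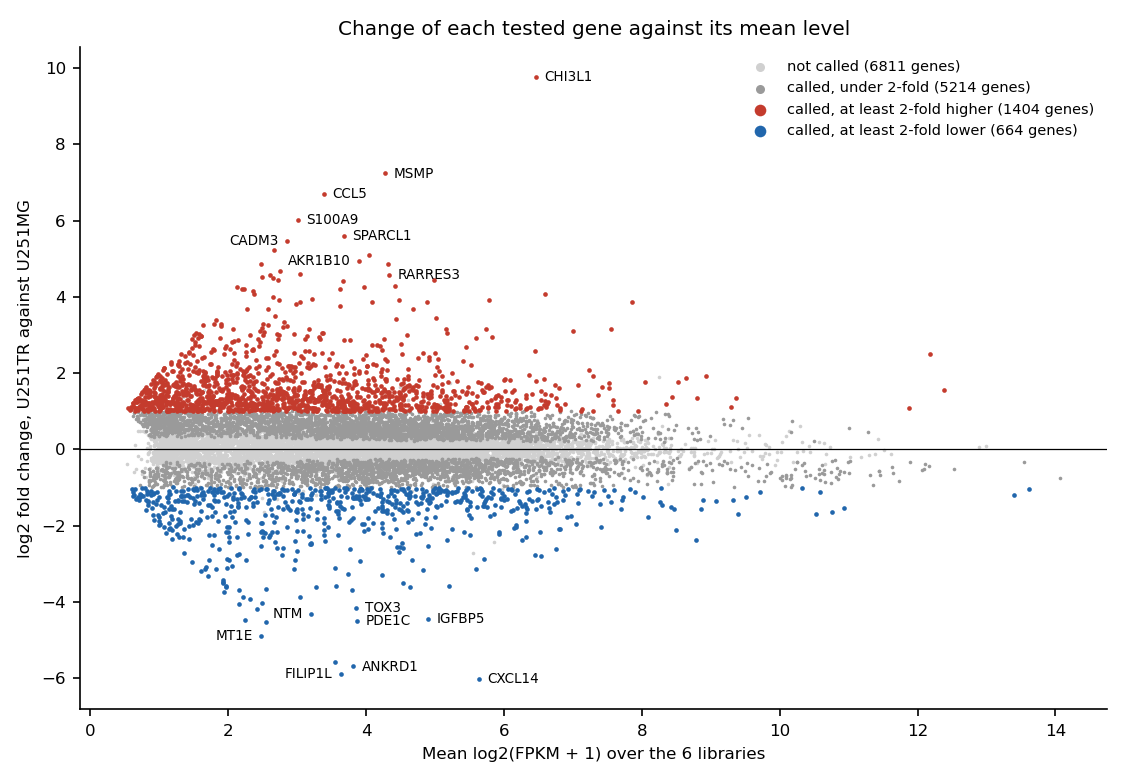
Log2 fold change of U251TR against U251MG (vertical axis) by mean level over the 6 libraries on a log2(FPKM + 1) scale (horizontal axis), 1 point per tested gene, with some of the genes of largest rise and fall named. The 1404 genes called at least 2-fold higher are red and the 664 called at least 2-fold lower blue, and changes of at least 16-fold occur in both directions.

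The glial identity of the line was checked first. Both lines expressed astrocyte and neural stem transcripts, in a different mix. Of the 8 astrocyte markers tested of 12 listed, 4 rose and 3 fell. GFAP, the astrocyte intermediate filament, measured 20.3, 29.9 and 18.3 FPKM in U251MG and 392, 381 and 415 FPKM in U251TR (log2 fold change 4.09, SE 0.17, adjusted p = 4.8e-06), and every U251TR library was above every U251MG library. S100B, a calcium-binding protein of astrocytes, moved the opposite way and was at 9.64, 11.2 and 8.72 FPKM in U251MG and 2.31, 1.3 and 2.07 FPKM in U251TR (log2 fold change -1.92, SE 0.17, adjusted p = 0.000125). SLC1A3, the glutamate transporter of astrocytes, and GJA1, the main astrocyte gap junction protein, moved with it, and SLC1A3 fell by 2.37 and GJA1 fell by 2.21 on the log2 scale.

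Proneural and stem factors fell more often than they rose in U251TR. Of 14 tested, 7 were lower and 2 higher, and the median log2 fold change was -0.38 against 0.11 over all genes. NES, the intermediate filament of neural progenitors, was at 178, 229.6 and 179 FPKM in U251MG and 45.3, 39.8 and 42.8 FPKM in U251TR (log2 fold change -2.16, SE 0.12, adjusted p = 1.38e-05). OLIG1, a factor of the oligodendrocyte lineage, was at 4.77, 15.2 and 4.81 FPKM in U251MG and 0.93, 0.84 and 1.24 FPKM in U251TR (log2 fold change -2.03, SE 0.38, adjusted p = 0.00375). SOX11, which is active in immature neurons, measured 8.25, 6.11 and 7.79 FPKM in U251MG and 2.21, 1.96 and 2.35 FPKM in U251TR (log2 fold change -1.39, SE 0.14, adjusted p = 0.00021). PDGFRA, the receptor that marks proneural tumours, had the largest fall of the list (log2 fold change -2.70). In NES, OLIG1 and PDGFRA the U251MG replicate 2 value was the highest of the 6, and the groups did not overlap in any of the 4.

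Mesenchymal glioblastoma markers did not move together. Of 23 tested, 9 rose and 6 fell, and after median-of-ratios scaling 7 rose and 7 fell. LOX, the enzyme that crosslinks collagen and elastin, was at 1.21, 1.6 and 1.25 FPKM in U251MG and 18.5, 18.3 and 17 FPKM in U251TR (log2 fold change 3.01, SE 0.12, adjusted p = 3.9e-06). Periostin (POSTN), a matrix protein of stromal and tumour cells, was nearly lost, with 17.4, 16.2 and 16.7 FPKM in U251MG and 0.38, 0.08 and 0.2 FPKM in U251TR (log2 fold change -3.87, SE 0.13, adjusted p = 2.25e-06). Tenascin C (TNC), an abundant glioma matrix glycoprotein, dropped from 1007, 979.7 and 1020.1 FPKM to 192, 183 and 203 FPKM (log2 fold change -2.37, SE 0.07, adjusted p = 1.55e-06). The secreted lectin CHI3L1, a mesenchymal marker, had the largest rise of any named gene, 9.77 on the log2 scale.

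Of 8 leukocyte and microglia markers with values, 7 stayed under 1 FPKM in all 6 libraries, and lists for other cell types summed to higher levels. PTPRC, the pan-leukocyte phosphatase, averaged 0.04 FPKM in U251MG and 0.01 FPKM in U251TR, and CD3E of T cells was listed at 0 in all 6 libraries. The only leukocyte marker that passed the filter was the lysosomal protein CD68, at 1.55, 2.32 and 1.56 FPKM in U251MG and 2.9, 4.41 and 5.91 FPKM in U251TR (log2 fold change 0.92, SE 0.23, adjusted p = 0.0117). The summed level of the leukocyte and microglia list ranged from 2.31 to 3.06 FPKM in U251MG and from 3.71 to 7.23 FPKM in U251TR. Fibroblast markers summed to 662 to 1127 FPKM in U251MG and 264 to 302 FPKM in U251TR, and epithelial markers to 103 to 129.5 and 73 to 80.7 FPKM. Oligodendrocyte markers summed to 45 to 83.5 and 77 to 85.6 FPKM, and neuron markers to 19.4 to 21.8 and 9.22 to 11.7 FPKM. Endothelial markers summed to 9.57 to 10.6 FPKM in U251MG and 17.9 to 18.7 FPKM in U251TR. THY1, a surface protein of fibroblasts and neurons that both lines expressed strongly, fell from 677, 1119.9 and 659 FPKM to 257, 258 and 295 FPKM (log2 fold change -1.55, SE 0.20, adjusted p = 0.000648). In bulk RNA, fewer cells of a kind and less RNA per cell cannot be told apart.

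MGMT was switched on in U251TR. It was listed at 0 in the 3 U251MG libraries and was at 8.73, 7.7 and 9.58 FPKM in U251TR (adjusted p = 3.64e-06), so no fold is given. ALKBH2, an oxidase that also strips methyl groups from bases, moved little and down, at 20.7, 22.9 and 17.9 FPKM in U251MG and 15.1, 15.3 and 15.2 FPKM in U251TR (log2 fold change -0.40, SE 0.11, adjusted p = 0.0168), and its call was lost without U251MG replicate 1, U251TR replicate 1 or U251TR replicate 2 (adjusted p = 0.0543, 0.0561 and 0.0546) and after rescaling to TPM (adjusted p = 0.0501).

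Mismatch repair transcripts were present in both lines. Of 9 genes tested, 5 were higher and 1 lower, against 2 and 2 after median-of-ratios scaling, and 2 were higher without U251MG replicate 1 and 3 without U251MG replicate 3, U251TR replicate 1 or U251TR replicate 2. MSH6, a subunit of the mismatch recognition complex, was at 35, 51.9 and 36.2 FPKM in U251MG and 32.1, 29.8 and 28.8 FPKM in U251TR and did not pass the test (log2 fold change -0.41, SE 0.15, adjusted p = 0.0581). It was called lower after median-of-ratios scaling (adjusted p = 0.0154) and quantile normalization (adjusted p = 0.0338), in the fit on all 12 libraries (adjusted p = 0.0215), and without U251MG replicate 1 (adjusted p = 0.0416) or replicate 2 (log2 fold change -0.23, adjusted p = 0.0249). PMS2, the endonuclease of the pathway, was at 12, 11 and 11.9 FPKM in U251MG and 11.1, 11.4 and 11.8 FPKM in U251TR, with a log2 fold change of -0.02 (SE 0.09) that did not pass. MSH3, which recognises larger loops, fell from 8.07, 8.7 and 8.62 FPKM to 5.16, 5.58 and 4.4 FPKM (log2 fold change -0.65, SE 0.12, adjusted p = 0.00298). MLH3, a low-level MutL component, was at 0.55, 0.27 and 0.12 FPKM in U251MG and 2.52, 2.24 and 1.82 FPKM in U251TR (log2 fold change 1.29, SE 0.16, adjusted p = 0.000565) and was the only tested member of the list changed by 2-fold or more.

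In base excision repair the changes were small. Of 21 genes tested, 8 were higher, 1 was lower, and none reached 2-fold. After median-of-ratios scaling 2 were higher and 4 lower. Leaving out any 1 library but U251MG replicate 2 gave 2 to 5 higher, and leaving out that replicate gave 12 higher and 3 lower. XRCC1, the scaffold that brings ligase to the nick, measured 25.7, 29 and 25.8 FPKM in U251MG and 48.4, 48.6 and 52 FPKM in U251TR (log2 fold change 0.87, SE 0.09, adjusted p = 0.000202), and the glycosylase NEIL3 measured 9.33, 12.6 and 10.3 FPKM in U251MG and 20.6, 19.3 and 20.7 FPKM in U251TR (log2 fold change 0.86, SE 0.12, adjusted p = 0.000927). TDG, which removes thymine from G:T mismatches and acts in DNA demethylation, fell from 18.4, 18.6 and 19.3 FPKM to 12.3, 11.7 and 9.63 FPKM (log2 fold change -0.70, SE 0.11, adjusted p = 0.00167). The methylpurine glycosylase MPG, which starts the removal of temozolomide's other adducts, was at 39.1, 34.8 and 38 FPKM in U251MG and 43.1, 46.2 and 50.5 FPKM in U251TR (log2 fold change 0.31, SE 0.09, adjusted p = 0.0253), and its call was lost without U251MG replicate 3, U251TR replicate 2 or U251TR replicate 3 (adjusted p = 0.0621, 0.0769 and 0.0793) and after median-of-ratios scaling (adjusted p = 0.178).

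Homologous recombination and Fanconi genes, which repair broken and crosslinked DNA, rose more widely. Of 29 tested, 16 were higher and 0 lower, with a median of 0.60. FANCI, part of the DNA clamp of the Fanconi pathway, was at 27.5, 38.1 and 25.4 FPKM in U251MG and 97.2, 86.2 and 76.3 FPKM in U251TR (log2 fold change 1.498, SE 0.16, adjusted p = 0.000304). FANCG of the core complex was at 20.1, 32.6 and 21.7 FPKM in U251MG and 69, 62.4 and 63.4 FPKM in U251TR (log2 fold change 1.38, SE 0.17, adjusted p = 0.000552). FANCF, another core subunit, measured 2.64, 3.95 and 2.61 FPKM in U251MG and 9.08, 9.03 and 9.31 FPKM in U251TR (log2 fold change 1.33, SE 0.15, adjusted p = 0.000339). Each of these 3 had no overlap between the lines. Damage checkpoint, end joining and translesion lists rose less widely. Of 15 damage checkpoint genes tested, 4 were higher and 2 lower, and of 12 end joining genes 3 were higher and 2 lower. Of 20 nucleotide excision and translesion genes, 3 were higher and 2 lower. Without U251MG replicate 2, 7 damage checkpoint genes were higher, and 5 nucleotide excision and translesion genes were lower. Single members of these lists follow. CHEK2, the checkpoint kinase activated by ATM, rose from 3.48, 7.2 and 3.96 FPKM to 15.4, 12.1 and 14.1 FPKM (log2 fold change 1.38, SE 0.23, adjusted p = 0.00205), while PRKDC, the kinase of end joining, fell from 50.9, 50.5 and 50.05 FPKM to 35, 37.5 and 30.6 FPKM (log2 fold change -0.55, SE 0.09, adjusted p = 0.00243). MAD2L2, a subunit of the translesion polymerase zeta and of shieldin, was at 55.9, 53.2 and 54.8 FPKM in U251MG and 109.96, 113 and 128 FPKM in U251TR (log2 fold change 1.08, SE 0.09, adjusted p = 7.4e-05).

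The 15 largest rises included the following genes. MSMP, a secreted chemoattractant also called prostate-associated microseminoprotein, measured 0.69, 0.49 and 0.56 FPKM in U251MG and 279.9, 161 and 298 FPKM in U251TR (log2 fold change 7.24, SE 0.23, adjusted p = 1.55e-06). CADM3, a neural adhesion molecule, measured 0.05, 0.12 and 0.08 FPKM in U251MG and 50.2, 40.9 and 50.6 FPKM in U251TR (log2 fold change 5.47, SE 0.12, adjusted p = 6.11e-07). The calcium buffer calretinin (CALB2) was at 0.02, 0.02 and 0.05 FPKM in U251MG and 26.1, 27.9 and 34.1 FPKM in U251TR (log2 fold change 4.87, SE 0.13, adjusted p = 9.05e-07). Elastin (ELN), the core of elastic fibres, was at 0.07, 0.27 and 0.4 FPKM in U251MG and 30.1, 23.3 and 33.4 FPKM in U251TR (log2 fold change 4.58, SE 0.17, adjusted p = 3.56e-06). RARRES3, a phospholipase induced by retinoids and interferon, was at 3.19, 3.63 and 2.64 FPKM in U251MG and 99.99, 92.6 and 99.5 FPKM in U251TR (log2 fold change 4.57, SE 0.11, adjusted p = 6.3e-07). All 5 were low in each U251MG library and at 23 FPKM or more in each U251TR library.

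The 15 largest falls included the following genes. FILIP1L, an inhibitor of cell migration, measured 108, 70.3 and 111 FPKM in U251MG and 0.63, 0.69 and 0.51 FPKM in U251TR (log2 fold change -5.89, SE 0.18, adjusted p = 1.55e-06). ANKRD1, a target of the coactivator YAP, measured 103, 87.3 and 112 FPKM in U251MG and 0.95, 1.08 and 0.83 FPKM in U251TR (log2 fold change -5.70, SE 0.12, adjusted p = 4.76e-07). NTM, a neural adhesion protein anchored by lipid, was at 49.1, 26.9 and 48.4 FPKM in U251MG and 0.99, 1.01 and 1.22 FPKM in U251TR (log2 fold change -4.31, SE 0.23, adjusted p = 1.23e-05). F13A1, the clotting factor subunit that crosslinks fibrin, was at 28.3, 14 and 25.4 FPKM in U251MG and 0.18, 0.34 and 0.24 FPKM in U251TR (log2 fold change -4.18, SE 0.25, adjusted p = 1.9e-05). TOX3, a chromatin-binding factor, was at 57.6, 68.4 and 55.6 FPKM in U251MG and 2.28, 2.47 and 2.57 FPKM in U251TR (log2 fold change -4.16, SE 0.11, adjusted p = 9.05e-07), and RGS8, which shortens G protein signals, was at 16.8, 20.3 and 18.1 FPKM in U251MG and 0.24, 0.25 and 0.33 FPKM in U251TR (log2 fold change -3.93, SE 0.12, adjusted p = 1.55e-06). For these 6 the lowest U251MG library lay far above the highest U251TR library.

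Presence and absence were counted separately. Under the rule of less than 0.1 FPKM in all 3 libraries of 1 line and at least 5 FPKM in all 3 of the other, 8 genes were gained in U251TR and 6 lost. The gained set held CCL5, S100A9, BPIFB4, CALB2, S100A8, MGMT, FAM19A5 and 1 clone-named transcript. S100A8 and S100A9, which form the calprotectin dimer of myeloid and stressed epithelial cells, were listed at 0 in U251MG and reached 22.3, 12.9 and 20.1 FPKM and 80.9, 44.1 and 71.2 FPKM in U251TR. BPIFB4, of a lipid-binding secreted family, went from 0.09, 0 and 0 FPKM to 43.6, 33.9 and 35.9 FPKM. The lost set held MT1E, MAGEA12, ANGPT2, FSTL5 and 2 clone-named transcripts. MAGEA12, a cancer-testis antigen on the X chromosome, went from 22.2, 20.2 and 21.4 FPKM to 0.02, 0 and 0 FPKM, and ANGPT2, a ligand that loosens vessel walls, from 9.08, 6.91 and 9.36 FPKM to 0.08, 0.09 and 0.04 FPKM. MT1E and MAGEA12 have near-identical family members, between which the authors' counting could divide reads.

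Interferon-stimulated genes rose in U251TR with few exceptions. Their promoters are shown because the same element recurs in them. The interferon-stimulated response element was searched on both strands, as the letters TTTC followed by any 2 bases and TTTC again, in the 250 bases before the start of each gene, in RefSeq promoters of GRCh38.p14. It was present in 18 of the 28 interferon-stimulated genes with a promoter in the table (64.3%), against 2.38% of the 10225 promoters of tested genes and 3.07% of all 27305. The promoters of IFIT1 (chr10:89392373-89392622, plus strand), IFIT3 (chr10:89327747-89327996, plus strand) and ISG15 (chr1:1013247-1013496, plus strand) each held 2 matches, given in capitals, which overlap in ISG15. CXCL10 (chr4:76023498-76023747, minus strand) held 1, together with 2 matches to the kappaB motif of NF-kB, also in capitals. In TNFAIP3 (chr6:137867009-137867258, plus strand) the capitals mark 2 kappaB matches. Each line runs 5′ to 3′ on the strand of the gene and ends at the base before its start.

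IFIT1: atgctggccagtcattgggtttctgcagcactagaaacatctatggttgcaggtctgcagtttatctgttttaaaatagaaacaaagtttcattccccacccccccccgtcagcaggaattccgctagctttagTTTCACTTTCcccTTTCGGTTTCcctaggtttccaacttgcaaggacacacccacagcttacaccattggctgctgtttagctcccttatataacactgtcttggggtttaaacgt
IFIT3: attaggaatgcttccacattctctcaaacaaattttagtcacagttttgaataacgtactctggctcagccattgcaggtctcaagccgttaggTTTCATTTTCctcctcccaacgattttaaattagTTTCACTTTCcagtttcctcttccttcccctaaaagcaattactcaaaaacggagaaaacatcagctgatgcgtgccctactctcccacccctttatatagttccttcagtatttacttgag
ISG15: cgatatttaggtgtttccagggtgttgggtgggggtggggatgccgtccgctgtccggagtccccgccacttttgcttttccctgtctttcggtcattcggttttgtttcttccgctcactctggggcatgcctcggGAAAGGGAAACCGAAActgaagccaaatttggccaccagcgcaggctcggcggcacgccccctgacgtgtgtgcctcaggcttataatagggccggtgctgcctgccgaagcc
CXCL10: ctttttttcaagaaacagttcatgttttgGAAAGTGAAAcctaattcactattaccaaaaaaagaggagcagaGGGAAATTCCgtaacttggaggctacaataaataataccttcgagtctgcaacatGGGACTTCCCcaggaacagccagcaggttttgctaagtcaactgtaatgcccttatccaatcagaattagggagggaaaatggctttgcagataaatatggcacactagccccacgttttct
TNFAIP3: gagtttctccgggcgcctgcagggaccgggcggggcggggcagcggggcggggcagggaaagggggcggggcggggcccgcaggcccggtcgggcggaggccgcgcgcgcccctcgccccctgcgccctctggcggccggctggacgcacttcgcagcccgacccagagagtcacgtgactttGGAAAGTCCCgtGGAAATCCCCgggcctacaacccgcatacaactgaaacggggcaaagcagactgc

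A match is a string of letters, not a measured binding site. The element was found in 19 of the 174 promoters of genes raised at least 4-fold (10.9%) and in 4 of the 97 of genes lowered at least 4-fold (4.12%). The raised set includes IFIT1, IFIT3, ISG15 and CXCL10, whose matches are printed above, so its share is not independent of the interferon-stimulated list. The kappaB motif was found in 7 of 15 promoters of NF-kB feedback genes (46.7%) and in 4 of 7 chemokine ligands (57.1%), some of which are copies within the CXC gene cluster, against 11.7% of tested genes. The antioxidant response element of NRF2, searched as TGACNNNGC, was found in 3 of 16 promoters of NRF2 targets (18.8%) and in 11.97% of tested genes.

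Of 35 interferon-stimulated genes tested, 34 were higher and 31 of them by at least 2-fold, with a median of 1.97. IFIT1, which binds viral RNA lacking the cap methyl group, measured 1.96, 4.53 and 2.11 FPKM in U251MG and 118, 105 and 99.1 FPKM in U251TR (log2 fold change 4.86, SE 0.23, adjusted p = 8.26e-06). IFIT2, its partner, measured 1.9, 1.91 and 1.63 FPKM in U251MG and 112, 84.3 and 92.5 FPKM in U251TR (log2 fold change 5.10, SE 0.12, adjusted p = 6.3e-07). RSAD2 (viperin), which makes a chain-terminating nucleotide, measured 0.71, 0.09 and 0.25 FPKM in U251MG and 36.9, 29.2 and 34.1 FPKM in U251TR (log2 fold change 4.69, SE 0.19, adjusted p = 4.26e-06). IFIT3, which stabilises IFIT1, measured 4.38, 2.95 and 4.35 FPKM in U251MG and 102, 86.7 and 93.2 FPKM in U251TR (log2 fold change 4.29, SE 0.14, adjusted p = 2.02e-06). ISG15, a ubiquitin-like modifier given because its promoter is printed, was at 64.8, 54.1 and 61.4 FPKM in U251MG and 906, 827 and 936 FPKM in U251TR (log2 fold change 3.87, SE 0.10, adjusted p = 6.39e-07). The lines did not overlap for any of the 5. GBP3 was the member that did not pass, and 33 members were higher after median-of-ratios scaling.

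The signal upstream was followed from ligand to factor. IFNB1, the type I interferon that most cells can make, measured 0.35, 0 and 0.27 FPKM in U251MG and 11.3, 8.51 and 12.5 FPKM in U251TR (log2 fold change 3.28, SE 0.18, adjusted p = 1.46e-05). IFNL1, a type III interferon, was listed at 0 in U251MG and was at 2.74, 2.78 and 2.05 FPKM in U251TR. The receptor chains IFNAR1 and IFNAR2 did not pass the test, with log2 fold changes of 0.20 (SE 0.08) and 0.38 (SE 0.17), but both were called higher without U251MG replicate 2 (adjusted p = 0.0208 and 0.00154) and in the fit on all 12 libraries (adjusted p = 0.0376 and 0.0325), and IFNAR1 after rescaling to TPM (adjusted p = 0.0164), while the gamma receptor chain IFNGR1 rose from 21.1, 19 and 22.1 FPKM to 33.8, 31.8 and 30.5 FPKM (log2 fold change 0.61, SE 0.09, adjusted p = 0.00138). JAK2, a kinase of the cytokine receptors that was singled out after its values were seen, was at 3.75, 3.52 and 3.92 FPKM in U251MG and 31.1, 26.6 and 22.5 FPKM in U251TR (log2 fold change 2.54, SE 0.13, adjusted p = 1.18e-05).

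Sensors of nucleic acids and their adaptors rose in 10 of 14 cases and fell in 1. DDX58 (RIG-I), which detects RNA with a triphosphate end, was at 3.48, 3.21 and 3.63 FPKM in U251MG and 79.6, 59.9 and 54.7 FPKM in U251TR (log2 fold change 3.87, SE 0.15, adjusted p = 3.72e-06). IFIH1 (MDA5), which detects long duplex RNA, was at 5.65, 5.44 and 5.6 FPKM in U251MG and 50.2, 39.9 and 39.1 FPKM in U251TR (log2 fold change 2.74, SE 0.12, adjusted p = 5.27e-06). TMEM173 (STING), the adaptor for cytosolic DNA, was at 15.2, 21.7 and 16.1 FPKM in U251MG and 56, 56.8 and 56.6 FPKM in U251TR (log2 fold change 1.64, SE 0.13, adjusted p = 8.21e-05), and TLR4, the endotoxin receptor, at 4.53, 4.4 and 4.77 FPKM in U251MG and 18.3, 17 and 15.1 FPKM in U251TR (log2 fold change 1.67, SE 0.11, adjusted p = 2.82e-05). MAVS, the adaptor of RIG-I and MDA5, was the member that fell, by 0.48 (adjusted p = 0.0114).

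Among the factors, 9 of 16 STAT, IRF and feedback genes rose and 2 fell. STAT5A, which acts downstream of cytokine receptors, was at 0.97, 1.64 and 0.64 FPKM in U251MG and 10.3, 9.36 and 10.5 FPKM in U251TR (log2 fold change 2.44, SE 0.18, adjusted p = 5.78e-05). USP18, the protease that removes ISG15 and damps the receptor, was at 3.6, 5.72 and 3.94 FPKM in U251MG and 13.1, 14.9 and 15 FPKM in U251TR (log2 fold change 1.52, SE 0.16, adjusted p = 0.000273). STAT6, the factor of IL-4 signalling, was at 0.57, 0.17 and 0.17 FPKM in U251MG and 2.54, 3.06 and 2.49 FPKM in U251TR (log2 fold change 1.51, SE 0.16, adjusted p = 0.000244). STAT2, a factor of the type I interferon response, did not pass, with a log2 fold change of 0.18 (SE 0.10), but was called higher without U251MG replicate 2 (adjusted p = 0.0151).

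**Figure D2:**
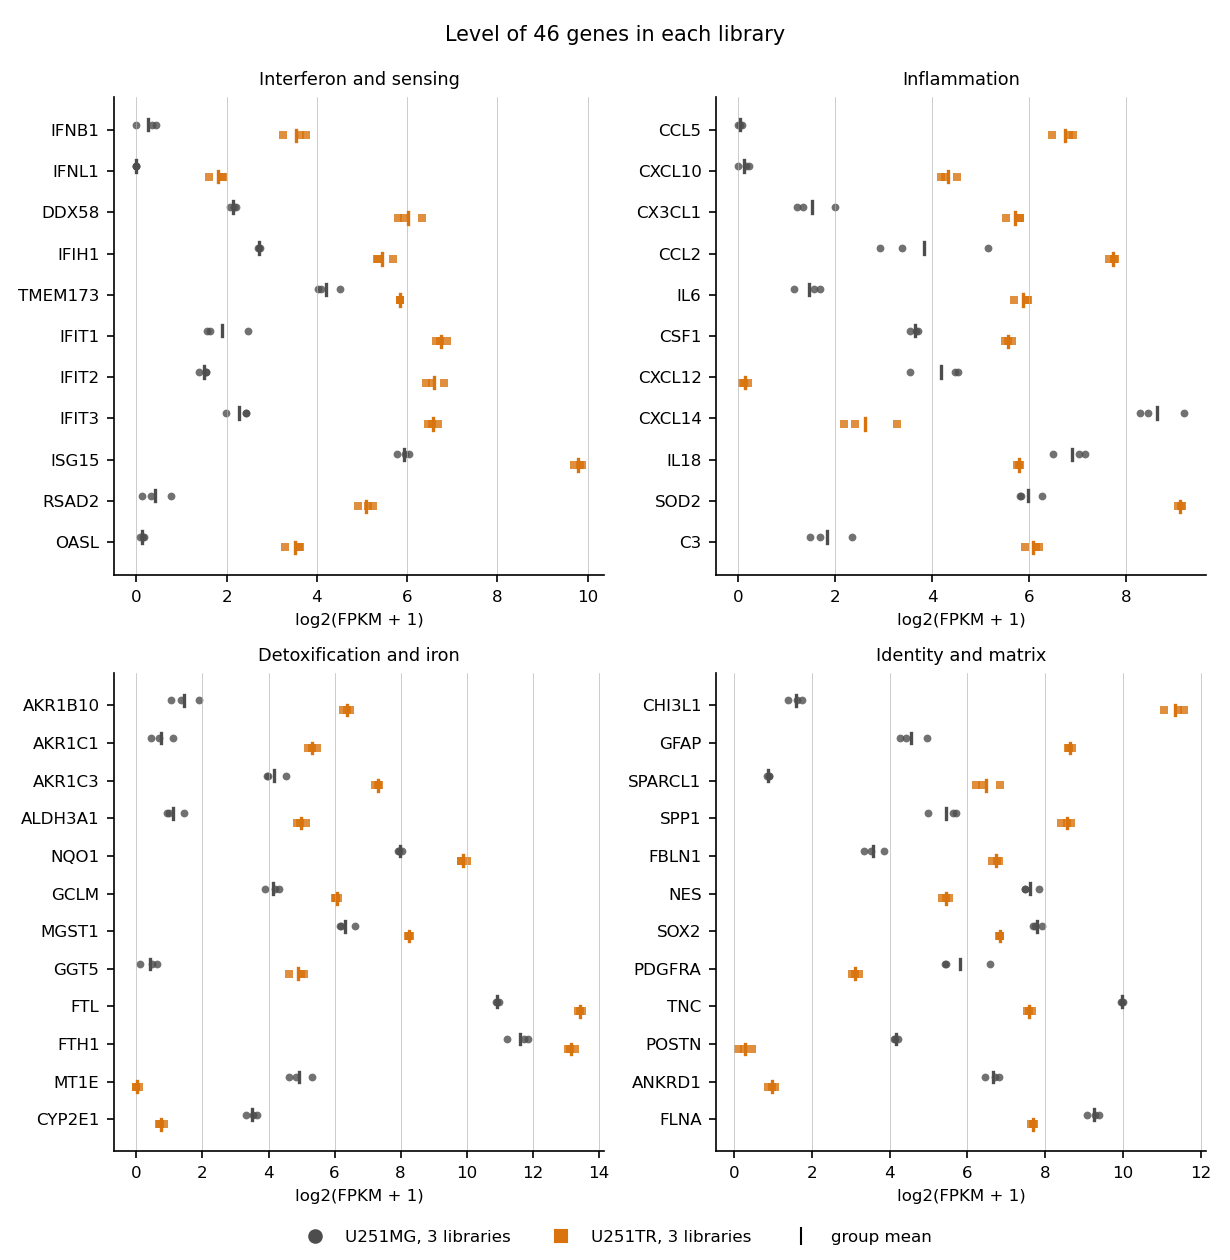
Level of 46 genes on a log2(FPKM + 1) scale (horizontal axis), with 1 point for each of the 3 U251MG and 3 U251TR libraries and a bar at the mean of each group. The 46 genes were picked for display. The groups do not overlap for any of them, nor for 61.3% of all tested genes. The shift is to the right in U251TR for the interferon genes and to the left for genes such as CXCL12, CXCL14, TNC and POSTN.

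Antigen presentation by MHC class I rose together with these genes. Of 18 members tested, 14 were higher and 1 lower, with a median of 0.86. TAP1, a subunit of the peptide pump of the endoplasmic reticulum, measured 34, 27 and 31.8 FPKM in U251MG and 97.7, 94.8 and 103 FPKM in U251TR (log2 fold change 1.64, SE 0.10, adjusted p = 2.37e-05). HLA-B measured 15, 9.1 and 13.7 FPKM in U251MG and 66.4, 57.8 and 76.5 FPKM in U251TR (log2 fold change 2.34, SE 0.19, adjusted p = 7.55e-05) and HLA-F 23.2, 14.3 and 17.3 FPKM in U251MG and 98.4, 83.8 and 100.4 FPKM in U251TR (log2 fold change 2.33, SE 0.17, adjusted p = 4.79e-05), and reads can be divided among HLA genes because they are near-identical. PSMB9, a catalytic subunit of the immunoproteasome, was at 36.8, 33 and 35.5 FPKM in U251MG and 117, 119.9 and 145 FPKM in U251TR (log2 fold change 1.83, SE 0.11, adjusted p = 1.73e-05). Of 11 listed genes of MHC class II only the protease CTSS passed the filter, at 1.31, 2.15 and 1.66 FPKM in U251MG and 14.1, 12.4 and 15.2 FPKM in U251TR (log2 fold change 2.46, SE 0.15, adjusted p = 2.14e-05).

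Ligands for checkpoint receptors and natural killer cells moved less. Of 14 tested, 6 rose and 0 fell. LGALS9, a galectin that binds TIM-3, was at 4.41, 3.42 and 4.03 FPKM in U251MG and 9.58, 11.4 and 11 FPKM in U251TR (log2 fold change 1.24, SE 0.13, adjusted p = 0.00023), and MICB, a ligand of the receptor NKG2D, at 1.66, 1.17 and 1.44 FPKM in U251MG and 4.2, 3.89 and 3.76 FPKM in U251TR (log2 fold change 1.03, SE 0.13, adjusted p = 0.000516). CD274 (PD-L1) did not pass, at 15.4, 6.29 and 16.4 FPKM in U251MG and 9.43, 8.96 and 9.55 FPKM in U251TR (log2 fold change -0.31, SE 0.31). Without U251MG replicate 2, in which it was lowest, CD274 was called lower (log2 fold change -0.72, adjusted p = 0.000166), as 1 of 3 members of the list that then fell.

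Chemokine ligands changed in both directions and by large amounts. CXCL10, an interferon-induced attractant of T cells, was at 0.16, 0 and 0.11 FPKM in U251MG and 21.9, 17.2 and 18.3 FPKM in U251TR (log2 fold change 4.20, SE 0.14, adjusted p = 1.78e-06). CX3CL1, a membrane-bound ligand of microglia, was at 1.52, 3 and 1.31 FPKM in U251MG and 55.4, 45.2 and 55.2 FPKM in U251TR (log2 fold change 4.21, SE 0.21, adjusted p = 1.01e-05). CXCL12, the ligand of CXCR4, went the opposite way, from 22.1, 10.7 and 21.2 FPKM to 0.06, 0.14 and 0.08 FPKM (log2 fold change -4.06, SE 0.26, adjusted p = 2.57e-05). CXCL14, an orphan chemokine of epithelia, dropped from 310.03, 585 and 349.9 FPKM to 4.28, 8.63 and 3.56 FPKM (log2 fold change -6.02, SE 0.33, adjusted p = 1.32e-05). Of 11 ligands tested 7 were higher and 2 lower. None of 10 listed chemokine receptors reached the filter.

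Cytokines rose in 8 of 12 cases and fell in 2, or in 3 without U251MG replicate 2, with a median of 1.30. The summed level of the listed cytokines was 523, 136 and 429 FPKM in U251MG and 237, 222 and 241 FPKM in U251TR. CSF1, the macrophage growth factor, was at 12, 10.7 and 11.6 FPKM in U251MG and 46.1, 44.2 and 49.2 FPKM in U251TR (log2 fold change 1.93, SE 0.09, adjusted p = 7.36e-06), and IL15, which sustains natural killer cells, at 4.69, 3.3 and 5.59 FPKM in U251MG and 19.7, 20.3 and 19.4 FPKM in U251TR (log2 fold change 1.93, SE 0.16, adjusted p = 9e-05). TNFSF10 (TRAIL), a ligand that triggers apoptosis, was at 1.15, 1.97 and 1.22 FPKM in U251MG and 17.9, 16.3 and 17.2 FPKM in U251TR (log2 fold change 2.90, SE 0.15, adjusted p = 1.1e-05). Interleukin 6 (IL6) rose by 4.42 on the log2 scale. Of 13 cytokine receptors 5 rose (38.5%), near the share of all genes that were higher. IL13RA2, the decoy receptor for IL-13 that is frequent in glioblastoma, was at 6.65, 4.92 and 7.08 FPKM in U251MG and 97, 90.01 and 86.5 FPKM in U251TR (log2 fold change 3.69, SE 0.13, adjusted p = 2.95e-06). IL4R was at 0.76, 1.18 and 0.57 FPKM in U251MG and 16.9, 15.2 and 18.4 FPKM in U251TR (log2 fold change 3.29, SE 0.15, adjusted p = 7.89e-06), IL1R1 at 0.11, 0.11 and 0.12 FPKM in U251MG and 5.13, 4.81 and 5.27 FPKM in U251TR (log2 fold change 2.45, SE 0.11, adjusted p = 6.6e-06), and OSMR, the oncostatin M receptor, at 12.9, 11.4 and 11.4 FPKM in U251MG and 45.6, 43.8 and 46 FPKM in U251TR (log2 fold change 1.84, SE 0.09, adjusted p = 8.05e-06). None of these 4 overlapped between the lines.

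NF-kB feedback genes rose without exception among those that passed. Of 18 tested, 14 were higher and none lower, with a median of 1.18. TRAF1, an adaptor of TNF receptors, was at 2.66, 1.45 and 3.24 FPKM in U251MG and 47.9, 35.6 and 50.7 FPKM in U251TR (log2 fold change 3.75, SE 0.23, adjusted p = 2.03e-05). SOD2, the mitochondrial superoxide dismutase, was at 55.1, 76.5 and 55.7 FPKM in U251MG and 563, 539 and 568 FPKM in U251TR (log2 fold change 3.15, SE 0.13, adjusted p = 5.12e-06). BIRC3, an inhibitor of cell death, was at 0.79, 1.26 and 0.99 FPKM in U251MG and 18.1, 14.1 and 13.5 FPKM in U251TR (log2 fold change 3.01, SE 0.15, adjusted p = 1.07e-05). TNFAIP3 (A20), the deubiquitinase whose promoter is printed above, was at 4.93, 7.69 and 2.88 FPKM in U251MG and 22, 20.7 and 17.6 FPKM in U251TR (log2 fold change 1.84, SE 0.27, adjusted p = 0.00117). The subunit NFKB1 did not pass, with a log2 fold change of 0.20 (SE 0.10), and was called higher after rescaling to TPM (adjusted p = 0.0431).

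Complement and acute phase genes, which liver cells and reactive astrocytes secrete, rose, several of them from near 0 FPKM. Of 18 tested, 13 rose, 11 of them at least 2-fold, and 1 fell, with a median of 1.56. The summed level of the listed genes changed less, at 753, 742 and 736 FPKM in U251MG and 883, 848 and 887 FPKM in U251TR. Ceruloplasmin (CP), a copper ferroxidase, was at 0.26, 0.63 and 0.37 FPKM in U251MG and 37.9, 28.8 and 23.9 FPKM in U251TR (log2 fold change 4.44, SE 0.19, adjusted p = 5.12e-06). C3, the central complement protein, was at 2.22, 4.05 and 1.8 FPKM in U251MG and 72.7, 59.4 and 69.5 FPKM in U251TR (log2 fold change 4.25, SE 0.22, adjusted p = 1.03e-05). Haptoglobin (HP), which binds free haemoglobin, was at 0, 0.12 and 0.08 FPKM in U251MG and 21.4, 18.4 and 16.8 FPKM in U251TR (log2 fold change 4.21, SE 0.13, adjusted p = 1.55e-06). For these 3 genes every U251TR library was above every U251MG library.

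S100 proteins split. Beside the gain of S100A8 and S100A9, 6 of 11 tested members fell. S100A4, which is tied to motility, was at 71.3, 180.5 and 72.2 FPKM in U251MG and 20.6, 19.7 and 19.2 FPKM in U251TR (log2 fold change -2.24, SE 0.33, adjusted p = 0.0012). The abundant S100A6 and S100A10, which were added after their values were seen, fell by 1.11 and 1.11 on the log2 scale.

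**Figure D3:**
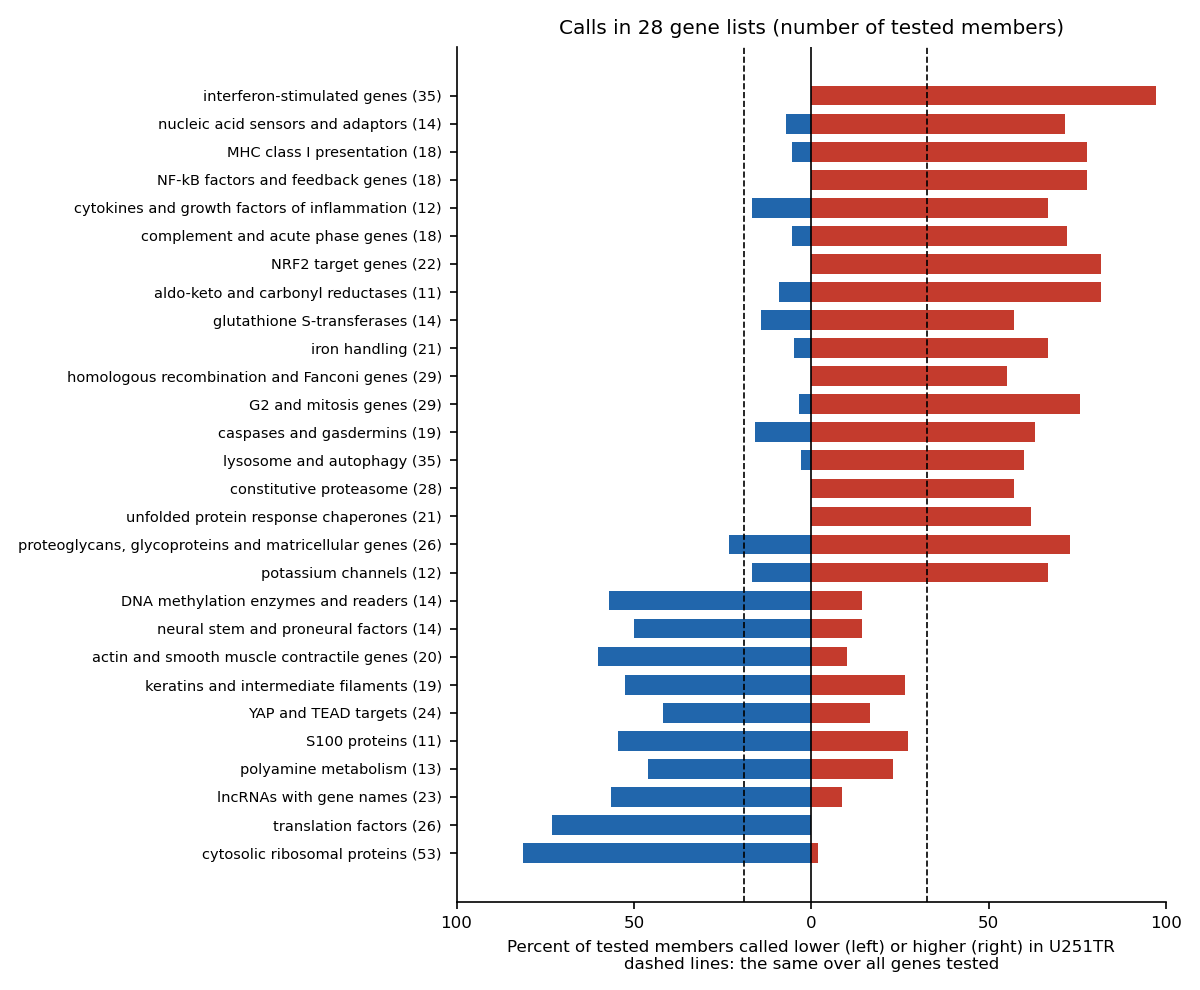
Percent of the tested members of 28 gene lists (vertical axis, with the number tested) that were higher (bars to the right) or lower (bars to the left) in U251TR, with dashed lines at 32.7% higher and 19.0% lower, the shares of all 14093 genes. The 28 lists were picked for display from 106. Lists not drawn include oxidative phosphorylation subunits, with 9 of 31 higher and 7 lower. Interferon-stimulated, NRF2 and complement lists extend far to the right of the line, and ribosomal proteins and translation factors far to the left.

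Detoxification genes under the oxidant-sensing factor NRF2 rose widely. Of 22 targets tested, 18 were higher and none lower, with a median of 1.45. AKR1B10, a reductase of reactive aldehydes, was at 1.06, 2.72 and 1.56 FPKM in U251MG and 82.4, 75.6 and 86.7 FPKM in U251TR (log2 fold change 4.93, SE 0.21, adjusted p = 5.12e-06). AKR1C1, AKR1C2 and AKR1C3, which reduce steroids and quinones and whose near-identical sequences can share reads, rose by 4.59, 3.99 and 3.15. Other targets were at once abundant and raised. FTL, the ferritin light chain, was at 2005, 1884 and 1922 FPKM in U251MG and 10563, 11131 and 11472 FPKM in U251TR (log2 fold change 2.51, SE 0.07, adjusted p = 9.56e-07), and FTH1, the heavy chain, at 3714, 2406 and 3407 FPKM in U251MG and 8563, 8968 and 9960.1 FPKM in U251TR (log2 fold change 1.55, SE 0.16, adjusted p = 0.000243). The 2 ferritins took 0.555 to 0.728% of all FPKM in U251MG and 2.75 to 2.93% in U251TR, and their many pseudogene copies make the level uncertain.

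Not all NRF2 targets took part. HMOX1, haem oxygenase, was at 47.9, 14.1 and 41.2 FPKM in U251MG and 25.1, 25.4 and 26.1 FPKM in U251TR (log2 fold change -0.25, SE 0.40), and the cystine importer SLC7A11 at 74.9, 33 and 83.7 FPKM in U251MG and 69.4, 62.2 and 50.9 FPKM in U251TR (log2 fold change 0.03, SE 0.33). Neither passed the test with all 6 libraries. Without U251MG replicate 2 both were lower in U251TR, HMOX1 with a log2 fold change of -0.78 (adjusted p = 9.66e-05) and SLC7A11 with -0.39 (adjusted p = 0.0288). Regulators and partners of NRF2 moved in both directions. NFE2L3, a related factor, was at 9.8, 8.56 and 9.32 FPKM in U251MG and 38, 32.4 and 37.2 FPKM in U251TR (log2 fold change 1.85, SE 0.10, adjusted p = 1.44e-05). SQSTM1 (p62), which sequesters the inhibitor KEAP1, was at 505, 298 and 473 FPKM in U251MG and 988, 1062 and 1109 FPKM in U251TR (log2 fold change 1.34, SE 0.19, adjusted p = 0.001). The small partner MAFK fell from 56.2, 26.9 and 47.5 FPKM to 10.9, 13.8 and 14.6 FPKM (log2 fold change -1.60, SE 0.26, adjusted p = 0.00177), while MAFG rose from 25.6, 15.2 and 25.2 FPKM to 52.3, 52.3 and 57.1 FPKM (log2 fold change 1.29, SE 0.19, adjusted p = 0.00119).

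Other drug-handling families changed member by member. ALDH3A1, an aldehyde dehydrogenase that oxidises the metabolites of some alkylating drugs, was at 0.9, 1.69 and 0.97 FPKM in U251MG and 27.9, 34 and 30.1 FPKM in U251TR (log2 fold change 3.87, SE 0.16, adjusted p = 5.12e-06), and ALDH1A3, of glioma stem cells, at 1.35, 0.93 and 1.7 FPKM in U251MG and 8.41, 8.61 and 8.39 FPKM in U251TR (log2 fold change 2.04, SE 0.15, adjusted p = 4.69e-05). MGST1, a microsomal glutathione transferase, was at 71.8, 96.6 and 71.3 FPKM in U251MG and 302, 313 and 298 FPKM in U251TR (log2 fold change 1.93, SE 0.13, adjusted p = 2.83e-05). GGT5, which cleaves glutathione conjugates and leukotriene C4, was at 0.39, 0.53 and 0.08 FPKM in U251MG and 32.8, 23.6 and 30.5 FPKM in U251TR (log2 fold change 4.49, SE 0.18, adjusted p = 4.28e-06). CYP2E1, a P450 that oxidises ethanol and small solvents, was lost from 10.7, 8.9 and 11.7 FPKM to 0.79, 0.59 and 0.65 FPKM (log2 fold change -2.76, SE 0.14, adjusted p = 8.93e-06), whereas CYP4F11, a fatty acid hydroxylase, appeared, with 0.01, 0.02 and 0.01 FPKM in U251MG and 4.02, 4.08 and 3.76 FPKM in U251TR (log2 fold change 2.29, SE 0.11, adjusted p = 8.02e-06). Of 12 ABC transporters tested 7 rose and 1 fell, and ABCC3, an exporter of glucuronides, led them at 67.3, 43.5 and 67.3 FPKM in U251MG and 166, 141 and 126 FPKM in U251TR (log2 fold change 1.29, SE 0.19, adjusted p = 0.00107). The efflux pump ABCB1 stayed below the filter, at 0.01 to 0.1 FPKM in U251MG and 0 to 0.04 FPKM in U251TR.

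Metallothioneins, the cysteine-rich metal buffers, did not share 1 direction. MT1E went from 23.5, 39 and 27.2 FPKM to 0, 0.06 and 0 FPKM (log2 fold change -4.89, SE 0.19, adjusted p = 3.74e-06), while MT2A, the most abundant member, rose from 404, 521 and 403 FPKM to 738, 761 and 784 FPKM (log2 fold change 0.79, SE 0.11, adjusted p = 0.000999).

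Among lipid genes that set sensitivity to ferroptosis, death by lipid peroxidation, 9 of 21 rose and 5 fell, and of 21 iron handling genes 14 rose and 1 fell. The iron handling list had 7 higher without U251TR replicate 2, 8 without U251TR replicate 3 and after median-of-ratios scaling, and 3 lower without U251MG replicate 2. GPX4, which reduces lipid peroxides, was at 331, 319 and 329.9 FPKM in U251MG and 279, 306 and 345 FPKM in U251TR and did not pass (log2 fold change -0.08, SE 0.09). AIFM2 (FSP1), which regenerates the lipid-protecting form of coenzyme Q, was at 13.4, 11.9 and 12.2 FPKM in U251MG and 38.1, 40.1 and 43.3 FPKM in U251TR (log2 fold change 1.62, SE 0.09, adjusted p = 1.67e-05). ACSL4, which loads polyunsaturated fatty acids into membranes, fell from 23.4, 23.3 and 25 FPKM to 16.2, 15.4 and 11.8 FPKM (log2 fold change -0.70, SE 0.13, adjusted p = 0.00311). ACSL5, a relative, was at 0.46, 0.26 and 0.4 FPKM in U251MG and 7.78, 6.8 and 8 FPKM in U251TR (log2 fold change 2.63, SE 0.13, adjusted p = 8.08e-06). The desaturase FADS2 fell from 28.1, 73.7 and 30.4 FPKM to 7.13, 9.21 and 7.4 FPKM (log2 fold change -2.20, SE 0.34, adjusted p = 0.00144). STEAP2, which reduces iron and copper, was at 1.76, 1.01 and 1.87 FPKM in U251MG and 9.27, 8.55 and 8.47 FPKM in U251TR (log2 fold change 1.96, SE 0.16, adjusted p = 8.53e-05). TFRC, the transferrin receptor, moved by 0.24 (adjusted p = 0.0318), a call kept among the fits that left out 1 library only in the fit without U251MG replicate 2, the adjusted p of the others running from 0.051 to 0.137. After median-of-ratios scaling its adjusted p was 0.262.

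Extracellular matrix genes changed widely. Of 26 proteoglycan, glycoprotein and matricellular genes tested, 19 rose and 6 fell, and 11 and 5 did so by 2-fold. SPARCL1, an astrocyte protein that promotes synapses, was at 0.85, 0.79 and 0.88 FPKM in U251MG and 113, 73.5 and 81.5 FPKM in U251TR (log2 fold change 5.59, SE 0.16, adjusted p = 1.28e-06). Osteopontin (SPP1), a ligand of CD44 and integrins, was at 51.6, 31 and 48.5 FPKM in U251MG and 405, 339.8 and 379 FPKM in U251TR (log2 fold change 3.10, SE 0.19, adjusted p = 2.05e-05). Fibulin 1 (FBLN1), which bridges elastic and basement membrane proteins, was at 10.5, 13.6 and 9.15 FPKM in U251MG and 97.7, 107 and 111 FPKM in U251TR (log2 fold change 3.15, SE 0.14, adjusted p = 6.6e-06). None of the 3 overlapped between the lines.

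Of 20 collagens tested, 10 rose and 4 fell. COL13A1, a membrane collagen, was at 3.52, 2.05 and 2.98 FPKM in U251MG and 14.8, 11.4 and 17.3 FPKM in U251TR (log2 fold change 2.01, SE 0.20, adjusted p = 0.000189), and COL4A4, a basement membrane chain, at 0.07, 0.11 and 0.08 FPKM in U251MG and 3.48, 2.89 and 3.56 FPKM in U251TR (log2 fold change 1.98, SE 0.12, adjusted p = 2.03e-05). COL5A2, a fibrillar chain, fell from 37.3, 25.6 and 36.1 FPKM to 7.85, 7.91 and 7.51 FPKM (log2 fold change -1.94, SE 0.15, adjusted p = 6.1e-05). Laminins rose in 6 of 12 cases, and the subunit LAMB1 was at 52.3, 43.7 and 53.3 FPKM in U251MG and 189.6, 183 and 168 FPKM in U251TR (log2 fold change 1.84, SE 0.10, adjusted p = 1.46e-05). LAMB2 was the member that fell, from 194, 190.1 and 182 FPKM to 104, 115 and 78.8 FPKM (log2 fold change -0.94, SE 0.14, adjusted p = 0.00113). Integrin ITGA2, a collagen and laminin receptor, was at 5.95, 6.8 and 5.83 FPKM in U251MG and 54.5, 40.6 and 45 FPKM in U251TR (log2 fold change 2.72, SE 0.13, adjusted p = 7.86e-06), and ITGA7, a laminin receptor of glioma stem cells, fell from 83.6, 90.1 and 84.8 FPKM to 40.1, 34.7 and 30.7 FPKM (log2 fold change -1.28, SE 0.11, adjusted p = 0.000102).

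Proteases of the matrix changed in both directions. MMP14, the membrane protease that activates MMP2, was at 9.56, 10.5 and 10.1 FPKM in U251MG and 0.69, 0.25 and 0.5 FPKM in U251TR (log2 fold change -2.91, SE 0.14, adjusted p = 9.12e-06). MMP9, a gelatinase, was at 0.03, 0.01 and 0 FPKM in U251MG and 7.25, 4.71 and 8.32 FPKM in U251TR (log2 fold change 2.91, SE 0.19, adjusted p = 2.83e-05). ADAMTS4, which cuts aggrecan and brevican, was at 0.61, 1.5 and 0.9 FPKM in U251MG and 16.3, 14.1 and 16.7 FPKM in U251TR (log2 fold change 3.08, SE 0.18, adjusted p = 1.75e-05), and TIMP4, an inhibitor, at 0.72, 0.98 and 1.05 FPKM in U251MG and 9.28, 6.2 and 8.91 FPKM in U251TR (log2 fold change 2.24, SE 0.17, adjusted p = 5.92e-05). In all, 12 of 23 rose and 9 fell, and after quantile normalization 10 rose and 10 fell. Tissue factor (F3), which starts clotting, was at 67.7, 16.7 and 58 FPKM in U251MG and 3.45, 2.84 and 3.65 FPKM in U251TR (log2 fold change -3.27, SE 0.47, adjusted p = 0.00102), and the tissue plasminogen activator PLAT fell from 55.7, 59.4 and 53.6 FPKM to 14.2, 13.8 and 12.9 FPKM (log2 fold change -1.97, SE 0.09, adjusted p = 5.83e-06).

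Targets of the coactivator YAP, which responds to cell stretch and density, fell more often than they rose. Of 24 tested, 10 were lower, 7 of them by at least 2-fold, and 4 were higher. Beside ANKRD1 and F3, the matricellular CYR61 (CCN1) was at 314, 176 and 312 FPKM in U251MG and 55.6, 79.5 and 64.2 FPKM in U251TR (log2 fold change -1.96, SE 0.24, adjusted p = 0.000508). THBS1, thrombospondin, was the exception among the 4 largest changes, at 2.58, 4.92 and 3.15 FPKM in U251MG and 11.7, 14.8 and 11.4 FPKM in U251TR (log2 fold change 1.61, SE 0.20, adjusted p = 0.000581). YAP1 itself did not pass, with a log2 fold change of 0.22 (SE 0.10), and was called higher after rescaling to TPM (adjusted p = 0.0345).

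Cytoskeletal and caveolar genes also fell more often than they rose. Of 20 actin and contractile genes tested, 12 fell and 2 rose, or 4 without U251MG replicate 2. Filamin A (FLNA), which crosslinks actin, was at 669, 540.3 and 621 FPKM in U251MG and 197, 209.9 and 206 FPKM in U251TR (log2 fold change -1.57, SE 0.10, adjusted p = 2.14e-05), and caldesmon (CALD1) fell from 109.9, 215 and 123 FPKM to 37.7, 36.1 and 27.8 FPKM (log2 fold change -2.06, SE 0.25, adjusted p = 0.000486). Smooth muscle actin (ACTA2) ran against the list, at 2.93, 3.52 and 2.52 FPKM in U251MG and 21.9, 22.1 and 21 FPKM in U251TR (log2 fold change 2.51, SE 0.12, adjusted p = 8.28e-06). Caveolae genes fell in 5 of 9 cases and rose in 1, or in 3 without U251MG replicate 2. CAV1, the coat protein of caveolae, fell from 165, 109.5 and 154 FPKM to 54.7, 59.9 and 51.8 FPKM (log2 fold change -1.33, SE 0.16, adjusted p = 0.000419). TMSB4X, which binds actin monomers and was among the most abundant transcripts of both lines, fell from 15157, 19390.4 and 15064 FPKM to 6846, 7161 and 7455 FPKM (log2 fold change -1.20, SE 0.11, adjusted p = 0.000138). Keratin and other intermediate filament genes fell in 10 of 19 cases and rose in 5, and 5 and 4 did so by at least 2-fold. Without U251MG replicate 2, 8 rose. Among the keratins, epithelial intermediate filaments, KRT80 fell by 2.78 and KRT7 fell by 2.66 on the log2 scale.

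Adhesion and guidance molecules changed in both directions as well. CNTN1, contactin, fell from 10.4, 8.79 and 12.7 FPKM to 0.28, 0.32 and 0.43 FPKM (log2 fold change -3.10, SE 0.15, adjusted p = 8.93e-06), and CADM1 from 79.5, 107 and 84.3 FPKM to 19.6, 17.9 and 19.8 FPKM (log2 fold change -2.17, SE 0.12, adjusted p = 1.6e-05). CNTNAP2, a partner of contactins, was at 0.9, 1.72 and 0.96 FPKM in U251MG and 8.45, 8.11 and 8.62 FPKM in U251TR (log2 fold change 2.12, SE 0.16, adjusted p = 6.13e-05). The protocadherin PCDHAC2 appeared, with 0.08, 0.13 and 0.07 FPKM in U251MG and 7.56, 6.79 and 8.26 FPKM in U251TR (log2 fold change 2.96, SE 0.12, adjusted p = 4.43e-06). PANX2, a pannexin channel of brain, was at 1.41, 1.25 and 1.39 FPKM in U251MG and 21.1, 21.5 and 21.4 FPKM in U251TR (log2 fold change 3.25, SE 0.10, adjusted p = 1.55e-06), and the junction protein JUP (plakoglobin) at 6.96, 9.92 and 6.92 FPKM in U251MG and 45.1, 39.4 and 44.3 FPKM in U251TR (log2 fold change 2.31, SE 0.14, adjusted p = 2.39e-05). Of 43 guidance genes, 19 rose and 12 fell. SEMA3F, a repulsive semaphorin, was at 7.03, 9.95 and 5.96 FPKM in U251MG and 42.4, 40.6 and 45.3 FPKM in U251TR (log2 fold change 2.36, SE 0.17, adjusted p = 4.15e-05), SLIT2, the ligand of ROBO receptors, at 2.55, 2.55 and 2.85 FPKM in U251MG and 16, 15 and 14.7 FPKM in U251TR (log2 fold change 2.15, SE 0.10, adjusted p = 8.28e-06), and EPHB6, a kinase-dead ephrin receptor, at 0.2, 0.2 and 0.19 FPKM in U251MG and 6.19, 4.7 and 6.1 FPKM in U251TR (log2 fold change 2.47, SE 0.13, adjusted p = 1.3e-05).

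Growth factor signalling showed a change of receptors and ligands. FGFR3, a fibroblast growth factor receptor, was at 13.9, 23 and 15.2 FPKM in U251MG and 1.89, 1.55 and 1.52 FPKM in U251TR (log2 fold change -2.76, SE 0.19, adjusted p = 3.74e-05). MERTK, which binds dying cells through GAS6 and PROS1, was at 0.7, 0.73 and 0.9 FPKM in U251MG and 6.72, 6.29 and 5.69 FPKM in U251TR (log2 fold change 2.02, SE 0.12, adjusted p = 2.01e-05). PDGFB, a ligand of PDGF receptors, was at 21.7, 19.6 and 21 FPKM in U251MG and 2.85, 3.32 and 2.59 FPKM in U251TR (log2 fold change -2.48, SE 0.11, adjusted p = 7.21e-06), and NRG1, a ligand of ERBB receptors, at 52, 13.7 and 51.9 FPKM in U251MG and 2.83, 3.12 and 3.03 FPKM in U251TR (log2 fold change -3.12, SE 0.46, adjusted p = 0.00121). NRG1 was low in U251MG replicate 2, yet above all U251TR libraries. EGF was at 1.11, 1.67 and 0.95 FPKM in U251MG and 6.44, 6.46 and 6.09 FPKM in U251TR (log2 fold change 1.72, SE 0.15, adjusted p = 0.000102).

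Feedback genes of the MAPK cascade pointed both ways. SPRY1, an inhibitor of receptor kinase signals, was at 12, 8.94 and 11.9 FPKM in U251MG and 71.6, 62.6 and 66.8 FPKM in U251TR (log2 fold change 2.52, SE 0.13, adjusted p = 9.63e-06), DUSP6, the ERK phosphatase, at 18.9, 17.8 and 20.5 FPKM in U251MG and 62.7, 56.4 and 54.1 FPKM in U251TR (log2 fold change 1.55, SE 0.10, adjusted p = 2.22e-05), and the ETS factor ETV1 at 5.07, 4.44 and 4.83 FPKM in U251MG and 17.2, 17.5 and 15.7 FPKM in U251TR (log2 fold change 1.62, SE 0.10, adjusted p = 2.49e-05). Cyclin D1 (CCND1), which drives entry to the cycle, fell from 184, 116 and 164 FPKM to 39.2, 41.7 and 41.2 FPKM (log2 fold change -1.88, SE 0.16, adjusted p = 0.000105). In the IGF axis, IGFBP5, a binding protein, fell from 91.7, 304 and 94.7 FPKM to 6.1, 4.73 and 5.41 FPKM (log2 fold change -4.45, SE 0.43, adjusted p = 0.000176), and the RNA-binding IGF2BP3, an oncofetal protein, rose from 6.45, 6.05 and 7.28 FPKM to 45.5, 47.7 and 42.8 FPKM (log2 fold change 2.61, SE 0.10, adjusted p = 3.74e-06). PAPPA, the protease that frees IGF, was at 2.26, 0.88 and 2.05 FPKM in U251MG and 17.1, 13.2 and 14.3 FPKM in U251TR (log2 fold change 2.57, SE 0.22, adjusted p = 0.000107).

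Developmental pathways had single members with large changes. LTBP1, which stores latent TGF-beta in the matrix, was at 2.5, 1.68 and 2.48 FPKM in U251MG and 17.7, 16.8 and 18.3 FPKM in U251TR (log2 fold change 2.54, SE 0.14, adjusted p = 1.27e-05). NOG, the BMP antagonist, fell from 21.3, 18.1 and 22.1 FPKM to 2.73, 2.89 and 3.09 FPKM (log2 fold change -2.46, SE 0.11, adjusted p = 7.71e-06), while BMP6 rose from 1.55, 1.04 and 1.47 FPKM to 8.17, 8.69 and 9.25 FPKM (log2 fold change 2.05, SE 0.13, adjusted p = 2.79e-05). WNT5B was at 2.94, 2.33 and 2.77 FPKM in U251MG and 13.7, 15.8 and 17.2 FPKM in U251TR (log2 fold change 2.17, SE 0.13, adjusted p = 1.93e-05), and DKK1, the WNT inhibitor, fell from 185, 156 and 185 FPKM to 60.02, 79.6 and 63.2 FPKM (log2 fold change -1.37, SE 0.13, adjusted p = 0.000152). NOTCH1 and the target HEY1 fell by 0.92 and 1.16, and MAML2, the coactivator, by 1.48.

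Excitability genes included several that were close to silent in 1 line. The potassium channels KCNK5, a pH-sensitive leak channel, and KCNN4, which responds to calcium, were at 0.11, 0.09 and 0.06 FPKM in U251MG and 7.88, 6.19 and 8.68 FPKM in U251TR (log2 fold change 2.97, SE 0.14, adjusted p = 8.26e-06) and at 79.5, 67.5 and 75 FPKM in U251MG and 241, 224 and 254 FPKM in U251TR (log2 fold change 1.68, SE 0.09, adjusted p = 1.4e-05). Of 12 potassium channel genes 8 rose and 2 fell. The kainate receptor subunit GRIK2 fell from 8.55, 12.8 and 10.5 FPKM to 0.69, 0.69 and 0.77 FPKM (log2 fold change -2.74, SE 0.15, adjusted p = 1.59e-05), and GRIK3 from 1.87, 2.5 and 1.79 FPKM to 0.01, 0 and 0 FPKM (log2 fold change -1.60, SE 0.13, adjusted p = 8.09e-05). PDE1C, which degrades cyclic nucleotides, fell from 99.7, 31.1 and 101 FPKM to 1.99, 2.28 and 1.96 FPKM (log2 fold change -4.49, SE 0.42, adjusted p = 0.000149).

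Mitotic transcripts were raised by modest amounts. Of 29 G2 and mitosis genes tested, 22 were higher and 1 lower, but 6 reached 2-fold. KIF2C, a kinesin that corrects spindle attachments, was at 26.9, 37.6 and 28.4 FPKM in U251MG and 70.5, 72.6 and 76.7 FPKM in U251TR (log2 fold change 1.23, SE 0.13, adjusted p = 0.000273), and TOP2A, the topoisomerase of mitotic chromosomes, at 63.8, 102 and 69.8 FPKM in U251MG and 193, 195 and 147 FPKM in U251TR (log2 fold change 1.19, SE 0.19, adjusted p = 0.00183). MKI67, the proliferation marker, did not pass, at 33.2, 60.9 and 36 FPKM in U251MG and 54.5, 60.2 and 43.6 FPKM in U251TR (log2 fold change 0.32, SE 0.23), but was higher in U251TR without U251MG replicate 2 (log2 fold change 0.58, adjusted p = 0.00493). RRM2, the ribonucleotide reductase subunit, was at 38, 87 and 37.9 FPKM in U251MG and 131, 146 and 140.01 FPKM in U251TR (log2 fold change 1.45, SE 0.30, adjusted p = 0.00539), and MCM5 of the replicative helicase fell from 17, 39.6 and 16.7 FPKM to 7.81, 6.98 and 6.95 FPKM (log2 fold change -1.51, SE 0.30, adjusted p = 0.00498). The replication list held 11 higher members of 31, and 19 without U251MG replicate 2, whose RRM2 and MCM5 values were both the highest in its group.

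p53 targets did not move as 1 group, with 9 of 26 higher and 3 lower. GADD45B, a stress gene, was at 93.6, 50.3 and 97.7 FPKM in U251MG and 4.29, 6.75 and 6.81 FPKM in U251TR (log2 fold change -3.52, SE 0.27, adjusted p = 6.76e-05). FAS, the death receptor, was at 1.89, 2.44 and 2.25 FPKM in U251MG and 24.8, 22.7 and 20.4 FPKM in U251TR (log2 fold change 2.89, SE 0.12, adjusted p = 5.25e-06). PLK2, a kinase of centrioles and stress, fell from 71.9, 78.8 and 77.7 FPKM to 21.9, 30.01 and 22 FPKM (log2 fold change -1.60, SE 0.13, adjusted p = 8.4e-05). Without U251MG replicate 2, 5 members fell. CASP1, the inflammatory caspase, was at 0.79, 1.08 and 0.85 FPKM in U251MG and 22.1, 18.4 and 21.5 FPKM in U251TR (log2 fold change 3.51, SE 0.12, adjusted p = 2.95e-06), and CASP4, which senses endotoxin in the cytosol, at 11, 10.2 and 11.3 FPKM in U251MG and 57.8, 67.3 and 58 FPKM in U251TR (log2 fold change 2.39, SE 0.10, adjusted p = 4.28e-06). CASP6, an executioner, rose by 1.40. BCL2L1 (BCL-xL), which blocks apoptosis, fell from 179, 97.2 and 178 FPKM to 63.6, 68.7 and 73.2 FPKM (log2 fold change -1.08, SE 0.23, adjusted p = 0.00606), and BOK, a promoter of apoptosis, fell from 2.29, 1.31 and 1.8 FPKM to 0.27, 0.12 and 0.27 FPKM (log2 fold change -1.19, SE 0.16, adjusted p = 0.000744).

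Genes of polyamine metabolism, NADPH supply, glucose uptake and triglyceride synthesis were among those changed. Spermine synthase (SMS), an X-linked gene, was at 735, 719 and 789 FPKM in U251MG and 165, 178 and 176 FPKM in U251TR (log2 fold change -2.10, SE 0.08, adjusted p = 3.14e-06). ODC1, the first enzyme of polyamine synthesis, fell from 393, 255 and 359.6 FPKM to 123, 133 and 140.5 FPKM (log2 fold change -1.32, SE 0.16, adjusted p = 0.000497), and SAT1, the enzyme of polyamine breakdown, from 271, 155 and 264 FPKM to 73.5, 58.1 and 62.6 FPKM (log2 fold change -1.78, SE 0.22, adjusted p = 0.000495). IDH1, the cytosolic isocitrate dehydrogenase that makes NADPH, was at 24, 31.8 and 22.2 FPKM in U251MG and 89.2, 87.9 and 93 FPKM in U251TR (log2 fold change 1.77, SE 0.13, adjusted p = 5.75e-05), and PGD, of the pentose phosphate pathway, at 87.8, 134 and 84.1 FPKM in U251MG and 325, 340.1 and 349.97 FPKM in U251TR (log2 fold change 1.75, SE 0.17, adjusted p = 0.000191). The glucose transporter SLC2A1 fell from 188, 144 and 175 FPKM to 73, 82.5 and 79.3 FPKM (log2 fold change -1.09, SE 0.11, adjusted p = 0.00026). DGAT2, which closes triglyceride synthesis, was at 3.61, 3.03 and 3.22 FPKM in U251MG and 18.2, 16.7 and 21.1 FPKM in U251TR (log2 fold change 2.20, SE 0.12, adjusted p = 1.48e-05).

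Transcripts for protein synthesis were mostly lower, and those of the proteasome were more often higher than lower. Rates of synthesis and breakdown were not measured. Of 53 cytosolic ribosomal proteins tested, 43 were lower and 1 higher, with a median of -0.55, and after quantile normalization 29 were lower and 5 higher. RPL10 was at 2908, 2353 and 2709 FPKM in U251MG and 758, 796 and 894 FPKM in U251TR (log2 fold change -1.70, SE 0.10, adjusted p = 2.25e-05). Translation factors were lower in 19 of 26 cases and higher in none, or lower in 12 without U251TR replicate 1 or 3. EEF2, the elongation factor, fell from 854, 1077 and 828 FPKM to 432, 472 and 474 FPKM (log2 fold change -0.99, SE 0.11, adjusted p = 0.000378). Among proteasome subunits 16 of 28 were higher and none lower. After median-of-ratios scaling 9 were higher, when 3707 of all 14093 genes were. PSMC2, an ATPase of the cap, was at 69.6, 89.6 and 70.6 FPKM in U251MG and 154, 166 and 168 FPKM in U251TR (log2 fold change 1.08, SE 0.11, adjusted p = 0.000254).

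Lysosomal genes rose in 21 of 35 cases and fell in 1, or in 3 without U251MG replicate 2. The cathepsins CTSH and CTSL, lysosomal proteases, were at 5.28, 6.01 and 6.42 FPKM in U251MG and 42.5, 41.5 and 52.5 FPKM in U251TR (log2 fold change 2.75, SE 0.12, adjusted p = 6.79e-06) and at 31.5, 33 and 27.6 FPKM in U251MG and 91.1, 93.9 and 102 FPKM in U251TR (log2 fold change 1.61, SE 0.10, adjusted p = 1.97e-05). Chaperones of the endoplasmic reticulum rose in 13 of 21 cases and fell in none, or in 3 without U251MG replicate 2, and PDIA4 led them at 50.4, 94.5 and 51.4 FPKM in U251MG and 196, 183 and 199.8 FPKM in U251TR (log2 fold change 1.61, SE 0.23, adjusted p = 0.000993). HSPB1, a small heat shock protein, was at 171, 304 and 169.8 FPKM in U251MG and 691, 826 and 781 FPKM in U251TR (log2 fold change 1.88, SE 0.22, adjusted p = 0.000431).

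Several transcription factors changed by large amounts, in families whose share of called genes was 39.1% for HOX genes and 60.0% for nuclear receptors, against 51.7% of all genes. ZEB2 and TWIST1, factors of epithelial-mesenchymal transition, were at 21.7, 19.6 and 20.5 FPKM in U251MG and 2.84, 2.85 and 2.79 FPKM in U251TR (log2 fold change -2.50, SE 0.10, adjusted p = 4.13e-06) and at 31.9, 28.9 and 28.6 FPKM in U251MG and 5.83, 7.55 and 7.43 FPKM in U251TR (log2 fold change -1.96, SE 0.12, adjusted p = 2.05e-05). PRRX1, another mesenchymal factor, rose from 4.45, 4.84 and 4.21 FPKM to 30.8, 20.7 and 24.9 FPKM (log2 fold change 2.25, SE 0.15, adjusted p = 3.22e-05). RARB, a retinoic acid receptor, was at 0.83, 1.16 and 0.63 FPKM in U251MG and 12.5, 11.1 and 10.6 FPKM in U251TR (log2 fold change 2.73, SE 0.14, adjusted p = 1.21e-05). SOX21, a factor of neural progenitors, was at 57.7, 93.3 and 60.9 FPKM in U251MG and 8.08, 8.73 and 8.05 FPKM in U251TR (log2 fold change -2.91, SE 0.18, adjusted p = 2.14e-05), and MEIS2, a cofactor of HOX proteins, at 42.8, 45.7 and 45.1 FPKM in U251MG and 6.99, 9.1 and 8.57 FPKM in U251TR (log2 fold change -2.31, SE 0.11, adjusted p = 8.23e-06). HOXB3 fell from 207, 133 and 197 FPKM to 35, 35.4 and 33.9 FPKM (log2 fold change -2.30, SE 0.16, adjusted p = 4.47e-05), while HOXD10 rose from 2.09, 1.94 and 1.93 FPKM to 12.2, 14.6 and 13.3 FPKM (log2 fold change 2.26, SE 0.11, adjusted p = 9.72e-06).

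Chromatin genes fell more than they rose in the DNA methylation list, with 8 of 14 lower and 2 higher. ZBTB33 (Kaiso), a reader of methylated DNA, was at 17.5, 19.7 and 17.6 FPKM in U251MG and 6.91, 7 and 5.55 FPKM in U251TR (log2 fold change -1.37, SE 0.12, adjusted p = 0.000103), and TET2, which oxidises methylcytosine, at 6.91, 6.13 and 6.8 FPKM in U251MG and 3.27, 3.03 and 2.38 FPKM in U251TR (log2 fold change -0.97, SE 0.13, adjusted p = 0.000804). The maintenance methyltransferase DNMT1 did not pass, at 68.5, 87.1 and 66.6 FPKM in U251MG and 64.3, 63.6 and 60.8 FPKM in U251TR (log2 fold change -0.22, SE 0.11), and was called lower after median-of-ratios scaling (adjusted p = 0.0242). JARID2, a subunit of Polycomb complex, fell from 20.5, 15.2 and 20.3 FPKM to 4.47, 5.06 and 4.44 FPKM (log2 fold change -1.79, SE 0.14, adjusted p = 6.31e-05). SMARCA4 fell from 46.7, 65.3 and 49.8 FPKM to 22.4, 23.1 and 23.2 FPKM (log2 fold change -1.19, SE 0.13, adjusted p = 0.000305), while SMARCA2, the alternative ATPase of the same remodeller, rose from 26.3, 36.8 and 25.2 FPKM to 65.8, 61.1 and 64.4 FPKM (log2 fold change 1.11, SE 0.14, adjusted p = 0.000668). HDAC9, a class II deacetylase, fell from 41, 25 and 44.6 FPKM to 8.12, 9.73 and 8 FPKM (log2 fold change -1.94, SE 0.21, adjusted p = 0.000297).

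Named long noncoding RNAs fell in 13 of 23 cases and rose in 2, and 8 fell without U251MG replicate 3 or without U251TR replicate 3. DANCR, which hosts small nucleolar RNAs, was at 208, 260.4 and 217 FPKM in U251MG and 62.6, 72.8 and 67.1 FPKM in U251TR (log2 fold change -1.74, SE 0.11, adjusted p = 2.4e-05). MIAT fell from 22.7, 28.4 and 19.8 FPKM to 5.32, 3.33 and 2.62 FPKM (log2 fold change -2.40, SE 0.22, adjusted p = 0.000152). MEG3, an imprinted RNA that is silent in many gliomas, rose from 9.47, 6.7 and 8.09 FPKM to 46.5, 27.2 and 25.6 FPKM (log2 fold change 1.87, SE 0.23, adjusted p = 0.000552).

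The parental replicate that stood apart changed the counts of several groups. In the amino acid response driven by ATF4, 5 of 27 tested genes were lower with all libraries, 21 without U251MG replicate 2, and 2 when any other library was left out. The median member of that list was lower by 1.19 on the log2 scale in U251MG replicate 2 than in the mean of replicates 1 and 3. Against the same 2 replicates, the U251TR libraries differed by -0.71, -0.71 and -0.63. The tRNA synthetase gene MARS was at 255, 117 and 251.3 FPKM in U251MG and 98.4, 91.8 and 94.7 FPKM in U251TR, and GAS5, a noncoding RNA that accumulates when growth slows and was added after its values were seen, was at 1154, 335 and 1066 FPKM in U251MG and 306, 283 and 307 FPKM in U251TR. In both genes U251MG replicate 2 lay nearer to the U251TR libraries than to its own group. Without that replicate, 5737 of all 14093 genes were higher and 3463 lower, against 4609 and 2673 with all 6 libraries. Lower members went from 3 to 11 of 18 serine, glycine and folate genes and from 8 to 15 of 24 amino acid and glucose transporters. Higher members went from 6 to 10 of 23 cholesterol synthesis genes, near the share of all genes in that run. The median of the cholesterol list turned from -0.13 to 0.09. Whether U251TR is low or U251MG replicates 1 and 3 are high was not tested.

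**Figure D4:**
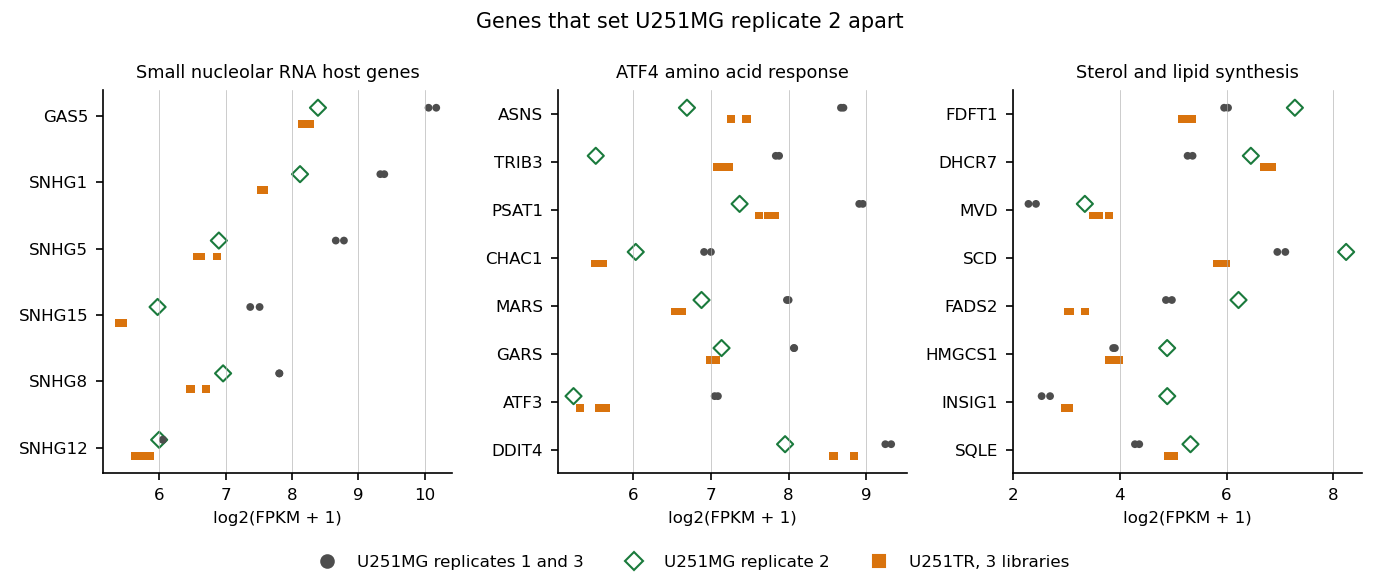
Level on a log2(FPKM + 1) scale (horizontal axis) of genes that host small nucleolar RNAs, genes of the ATF4 response and genes of sterol and lipid synthesis, with 1 point per library and U251MG replicate 2 drawn as an open diamond. For host genes such as GAS5 and for ATF4 response genes such as MARS, the diamond lies near the 3 U251TR libraries and away from U251MG replicates 1 and 3.

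Changes were not spread evenly over the chromosomes. Of the 14093 tested genes 12706 were placed by symbol in the RefSeq gene table of GRCh38.p14, which was used for chromosome and order only. On chromosomes 1, 2, 7, 9 and 15, chosen after their medians were seen, 1842 of 3689 genes were higher (49.9%) and 341 lower (9.24%). On the other autosomes 2347 of 8551 were higher (27.4%) and 1884 lower (22.0%). On the X chromosome 81 of 465 were higher (17.4%) and 205 lower (44.1%). The median log2 fold change was 0.36 on the first set, 0.03 on the other autosomes and -0.29 on X. After median-of-ratios scaling the medians of chromosomes 1, 2, 7, 9 and 15 remained above 0, from 0.11 to 0.27, and that of X was -0.41.

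Within chromosomes the change came in stretches. In consecutive blocks of about 50 tested genes, the first blocks of chromosome 9, from FOXD4 to DMRTA1 and from ELAVL2 to RGP1, had medians of 0.73 and 0.76, with 41 and 44 of 54 genes higher, while the last block of that chromosome had a median of 0.01. That first stretch of chromosome 9 holds JAK2, SMARCA2 and IFNB1, which were described above. FANCG lies among 15 neighbouring genes of chromosome 9, from DCTN3 to CA9, with a median of 1.02 and 14 higher. MAD2L2 lies among 15 of chromosome 1, from FBXO2 to PDPN, with a median of 1.05 and 13 higher. On X the blocks up to EFNB1 had medians of 0.02 to 0.28, and those from PJA1 to the end had medians of -0.55 to -0.78. The block from MST4 to ZNF275 held 40 lower genes of 51. FLNA, RPL10, ZBTB33, ACSL4 and MAGEA12, all lower in U251TR, lie beyond EFNB1, and SMS lies before it. Chromosome 19 opened with a median of -0.57 over the 53 genes from WASH5P to MKNK2.

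**Figure D5:**
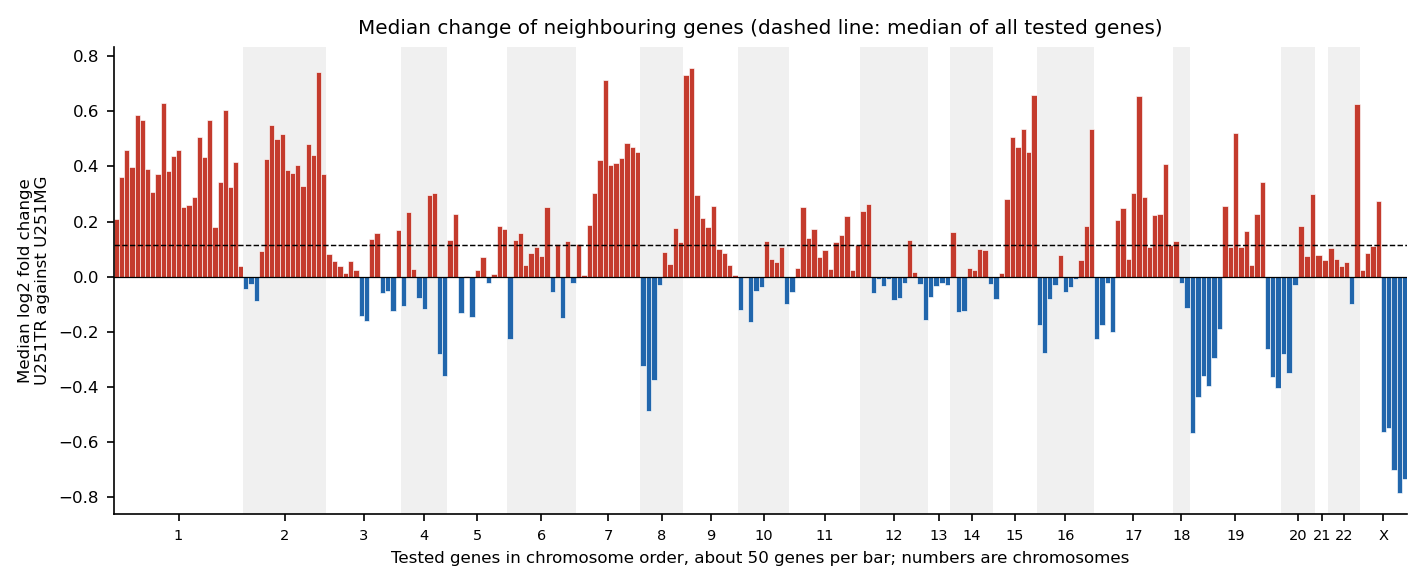
Median log2 fold change of consecutive blocks of about 50 tested genes, in chromosome order, with 1 bar per block, chromosomes 1 to 22 and X along the horizontal axis and a dashed line at the median of all tested genes, 0.11. Blocks at the start of chromosome 9 lie above 0.7 and blocks of the later part of X lie below -0.5.

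The most abundant transcripts changed rank. In U251MG the signal recognition particle RNA genes RN7SL1 and RN7SL2 and TMSB4X were the highest, and in U251TR FTL and FTH1 entered the leading 4 and B2M, which pairs with MHC class I heavy chains, the leading 10, at 2610.2, 2524 and 2598 FPKM in U251MG and 5699, 4921 and 5723 FPKM in U251TR (log2 fold change 1.08, SE 0.08, adjusted p = 5.87e-05). The 10 highest genes took 13.3 to 14.95% of summed FPKM in U251MG and 11.8 to 12.9% in U251TR. Transcripts encoded by mitochondrial DNA took 7.84 to 8.77% and 7.26 to 8.07%. Summed FPKM also differed, at 761616 to 785754 in U251MG and 695282 to 731685 in U251TR.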

How the data were processed

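Total RNA was sequenced as paired reads, per the labels' protocols. Alignment with STAR 2.5.2b and quantification with RSEM 1.2.31 are listed in the submitters' processing notes with build hg19, while the series' design text names hg38, so no coordinates were taken from the expression values. The deposited table, computed by the authors, was read as FPKM. The table does not state its unit, which was inferred from its values. It has 31681 rows, of which 27 date-like symbols were left out.

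Log2(FPKM + 1) was fitted with limma 3.58.1 (trend and robust moderation) under R 4.3.3 on the 6 libraries, with a filter of 1 FPKM reached in 3 or more libraries and a Benjamini-Hochberg threshold of 0.05. The script was tested on simulated data, where it recovered 36.5% of 1.5-fold, 73.0% of 2-fold and 98.4% of 4-fold changes. It called 5 unchanged genes. Summaries used Python 3.11.15 with pandas 2.3.3. Other pseudocounts, filters, scalings, fits and left-out libraries were tried. Counts were not used, so read depth and the counting error it sets are unknown.

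The comparison and its gene lists were chosen with earlier results of these data known. Genes were named by rule: the largest rises and falls, the leading called members of each list with a few that did not pass, genes gained or lost, the most abundant genes, and fixed repair and ferroptosis genes. ISG15, JAK2, MAVS, GBP3, S100A6, S100A10 and GAS5 were added after their values were seen. Promoters are from RefSeq (GRCh38.p14), matched by symbol. Some named genes are not reported here.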

Additional observations from a re-analysis of the deposited data

How the results depend on the processing

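The numbers of genes changed, higher and lower stayed within 1.5 times their values under every alternative run. Leaving out each library in turn gave 5722 to 9200 genes changed, 3632 to 5737 higher, 2090 to 3463 lower and 1964 to 2349 changed at least 2-fold, the highest of each without U251MG replicate 2. The count at 2-fold fell to 910 with a pseudocount of 5 FPKM, a construction that shrinks the change of low genes. With 2 or 10 FPKM in place of 5 FPKM as the level required, 22 or 5 genes were gained and 14 or 2 lost. Of 220 named genes past the threshold, 215 kept call and direction in every alternative and none turned. Among named genes that did not pass, GPX4 turned to 0.0159 (quantile normalization) and 0.0312 (TPM), PMS2 to 0.0846 (TPM) and SLC7A11 to -0.105 (median-of-ratios), on the log2 scale. Leaving out 1 library, HMOX1 ran from -0.779 (without U251MG replicate 2) to 0.0684 (without U251MG replicate 1), PMS2 from -0.0582 to 0.0018 (without the same 2 libraries), and SLC7A11 from -0.386 (without U251MG replicate 2) to 0.273, with -0.073 without U251TR replicate 1. The cause was not tested. Same-numbered libraries of the 2 lines correlated at -0.07, 0.13 and 0.03 in their deviations from the group means, so the numbers were not taken to pair them. With the replicate number as a block, 6916 genes changed, 4402 higher and 2514 lower, 2070 of them at least 2-fold. The 95% interval of the fold change lay within 1.5-fold either way for 4857 genes (34.5%). For 2549 genes (18.1%) that did not pass, it reached beyond 1.5-fold, so a change of that size was within the error of these 3 libraries a line.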
